A study of Mus musculus with 143 samples.

Results

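Solute carriers are membrane proteins that move small molecules across the plasma membrane and the membranes of organelles. The set described here holds every gene row named by the Slc pattern (Slc, a family number, a letter and a member number) that had at least 1 count in 15 or more cells. The genes Slc2a1, Slc2a5, Slc11a1, Slc11a2, Slc16a1, Slc16a3 and Slc40a1 were left out by name. That gave 33.1% of the 357 rows with such a name, out of 23337 gene rows in all. Of all gene rows, 7789 had a count in 15 or more cells. Of the 357 rows, 152 had no count in any cell, 81 had a count in 1 to 14 cells and 6 reached the limit but were left out by name; all the others are members. The seventh gene left out by name, Slc2a5, was read in 9 cells. Because the number of cells with a count chose the members, the shares of cells below are a description of the set.

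The cells were microglia, the resident macrophages of the brain, from the cerebellum of male wild type C57BL/6N mice at postnatal day 7. They were sorted one by one into plates by low CD45 with CD11b, Gpnmb and Clec7a on the surface, the last 2 being markers of a proliferative-region-associated (PAM) state, and read by Smart-seq2, which reads whole transcripts and has no molecular barcodes. The animals were pooled and no label ties a cell to an animal, so the 143 cells form 1 sample without replicates and no test between groups of cells was possible. Plate 1 held 95 cells and plate 2 held 48, and the plates were treated as technical batches.

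Total counts per cell ran from 271190 to 1226521, with a median of 760690, and 1552 to 4955 genes were read per cell, with a median of 3255. "Read" means at least 1 count. CPM is the count per 1000000 gene counts of a cell, and pooled CPM is the same over the summed counts of all cells; both are levels in shares of reads, so a higher CPM of 1 gene than of another is not a higher number of molecules; pooled CPM per kilobase of exon is given where genes are ranked by level. The defining microglial genes Csf1r and Fcrls were read in 100% of cells, and Cx3cr1 in 99.3%. Of the markers of other cells, Aqp4 and S100b of astrocytes and Mog, Mobp and Cldn11 of oligodendrocytes were at 0, while Cnp was read in 35.7% of cells and Mbp in 13.3%. Of 10 genes of border macrophages, 7 had a count, with Stab1 in 87.4% of cells and Mrc1 in 55.9%, whereas Cd163, Lyve1 and Cd209f were at 0. Of 6 genes each of neurons, astrocytes and monocytes or neutrophils and 5 of endothelial cells, the most widely read were Rbfox3 in 5.59%, Gfap in 8.39%, Fn1 in 15.4% and Flt1 in 10.5% of cells. In 15 or more cells, 24 of 24 PAM and disease-associated (DAM) genes, 17 of 18 homeostatic microglia genes, 27 of 27 S phase genes and 29 of 32 G2/M genes were read. All intervals below are exact Clopper-Pearson 95% intervals and cover counting error only, since copies of 1 molecule can be read many times. They are no test between groups of cells.

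In the carrier nomenclature a family number stands for related sequences, and families often share a kind of substance. Most proteins of the SLC25 family sit in the inner membrane of mitochondria and exchange nucleotides, phosphate and metabolites, SLC39 and SLC30 proteins move zinc into and out of the cytosol, and SLC35 proteins feed the Golgi with activated sugars. In phagocytes such as microglia, carriers of the lysosomal membrane return amino acids, peptides, nucleosides and sugars from digested material to the cytosol. Slc39a2 encodes the zinc importer ZIP2, Slc15a3 a proton-coupled histidine and peptide carrier of endosomes and lysosomes, and Slc46a3 a lysosomal membrane protein whose substrate was listed here as unsettled.

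The 250 bases before the annotated start of transcription are shown for the 3 members whose level differed most from cell to cell relative to genes of like mean, Slc39a2, Slc23a2 and Slc46a3. The starts and sequences come from RefSeq on build GRCm38.p6, are written 5′ to 3′ on the strand of the gene, and capitals mark a match to the core of the metal response element, TGCACNC or TGCGCNC, searched on both strands. The Slc39a2 window lies at chr14:51893360-51893609 on the plus strand, the Slc46a3 window at chr5:147894816-147895065 on the minus strand, and the first of the 2 Slc23a2 windows at chr2:132145321-132145570 on the minus strand. The RefSeq start of Slc39a2 lies inside the interval that GENCODE gives the gene, so that window is not upstream of all its annotated transcripts.
Slc39a2: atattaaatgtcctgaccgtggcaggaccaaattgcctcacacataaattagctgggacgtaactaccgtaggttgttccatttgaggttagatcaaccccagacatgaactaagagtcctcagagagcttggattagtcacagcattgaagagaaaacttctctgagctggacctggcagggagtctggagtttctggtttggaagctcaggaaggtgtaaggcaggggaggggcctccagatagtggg
Slc46a3: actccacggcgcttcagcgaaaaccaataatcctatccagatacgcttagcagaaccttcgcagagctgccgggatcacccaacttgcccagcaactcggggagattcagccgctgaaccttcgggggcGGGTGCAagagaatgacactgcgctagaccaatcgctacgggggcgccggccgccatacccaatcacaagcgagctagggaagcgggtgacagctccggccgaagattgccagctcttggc
Slc23a2: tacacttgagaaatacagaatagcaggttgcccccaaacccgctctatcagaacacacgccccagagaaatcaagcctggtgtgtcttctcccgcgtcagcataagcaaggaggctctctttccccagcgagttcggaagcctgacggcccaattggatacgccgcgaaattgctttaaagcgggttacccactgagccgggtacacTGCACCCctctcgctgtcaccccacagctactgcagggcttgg

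The metal response core was found in the windows of Slc46a3 and in the first one of Slc23a2. It was not found in the second Slc23a2 window, which is not shown, nor in the window of the zinc importer Slc39a2. It stood in 27.7% of the 130 windows of members and in 21.4% of all 32851 windows. The hexamer CACGTG, the core of sites read by TFEB and MITF, which act on lysosomal genes, was in 16 of the 130 member windows (12.3%), against 6.02% of all windows. Windows were on hand for 94 members. Member windows were richer in G and C than all windows, with a median of 60.8% against 52.4%, and its part in the motif shares was not tested. GAGGAA, the core of PU.1 sites, stood in 18.5% of member windows and 23.3% of all. The AP-1 site TGACTCA, which reads TGAGTCA on the other strand, stood in 2.31% and 4.46%, and the E2F core TTTCGCGC or TTTGGCGC in 0.769% and 0.654%. The stretches of 30 bases around CACGTG are given for the lysosomal amino acid carriers Slc36a1 and Slc38a7, with the hexamer in capitals, at chr11:55204297-55204326 on the plus strand and at chr8:95853508-95853537 on the minus strand. The Slc38a7 stretch lies inside the interval that GENCODE gives the gene (chr8:95835920-95853539), so it is not upstream of all its annotated transcripts. Slc36a1 and Slc38a7 are examples picked from the 16 members with the hexamer. The same 16 include the mitochondrial class members Slc25a1, Slc25a13, Slc25a15 and Slc25a36 and the ion carriers Slc12a7, Slc12a9, Slc20a1 and Slc41a3. The window of the lysosomal Slc46a3 did not hold the hexamer. A match describes letters only and says nothing of binding.
Slc36a1: ggaatggagcggCACGTGacctgggctagg
Slc38a7: gtgattcaggctCACGTGttacttgagtcg

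The members together took 0.970% of all gene counts, and between 0.557% and 1.59% in single cells, with a median of 0.976%. On plate 1 the pooled share was 0.982% and on plate 2 it was 0.946%. A cell read 17 to 61 members, with a median of 40. That number followed the number of genes read in the cell (Spearman rho 0.757 over 143 cells, 0.745 on plate 1 and 0.782 on plate 2), and rho was 0.756 after each cell was thinned to 200000 gene counts. Across cells the share of counts taken by members had a rho of 0.110 with genes read. Both measures come from the same libraries.

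Most members were read in a minority of cells, as were most of the 7789 genes read in 15 or more cells. At least 50% of cells read 21.2% of members and 28.2% of those genes. No member was read in every cell, 5 were read in at least 90% of cells, 25 in at least 50%, 37 in 25% to under 50% and 56 in under 25%. The median member was read in 26.6% of cells at a pooled level of 44.6 CPM, beside 30.8% and 37.8 CPM over the 7789 genes read in 15 or more cells. The 10 members highest in pooled CPM took 41.8% of member counts, and 7 of them were also among the 10 highest per kilobase. Just inside the limit, at 15 cells, stood Slc12a4, Slc17a9, Slc22a21, Slc25a15, Slc25a24, Slc36a1 and Slc5a6, and at 16 cells Slc24a6, Slc25a22, Slc39a8 and Slc45a4. Just outside it, at 14 cells, stood Slc16a13, Slc18a2, Slc25a38 and Slc6a8.

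**Figure D1:**
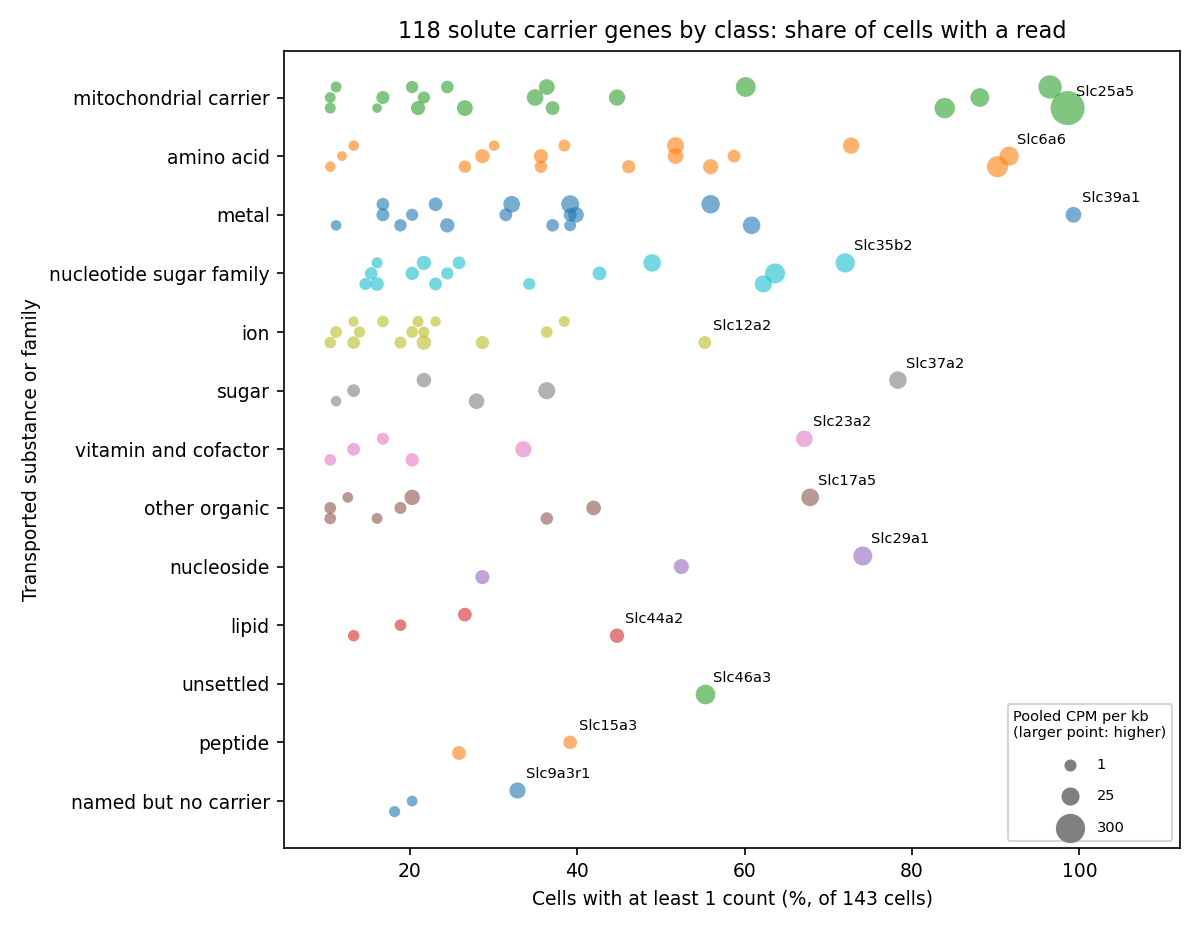
Share of the 143 cells with at least 1 count (horizontal axis, percent) for each member, 1 point each, in rows by transported substance or family; a larger point marks a higher pooled CPM per kilobase of exon. Slc39a1 of the metal carriers lies furthest right (99.3%), followed by the mitochondrial carriers Slc25a5 (98.6%) and Slc25a4 (96.5%). In every class but the nucleoside and unsettled ones, most members lie below 50% of the cells.

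Mitochondrial carriers were the largest class by reads. Their 19 members took 30.0% of member counts and 46.2% of the members' summed CPM per kilobase, and every cell read at least 3 of them. Slc25a5 and Slc25a4 encode the ADP/ATP translocases that exchange cytosolic ADP for mitochondrial ATP. Slc25a5 was read in 98.6% of cells (95% interval 95.04 to 99.8), and its level ran from 0 through a median of 1306 to 2728 CPM, and at a pooled level of 789 CPM per kilobase it was the highest member on that scale. Slc25a4 followed at 154 CPM per kilobase and was read in 96.5% of cells, with a median of 340 and a maximum of 946 CPM. Only 2 cells lacked a count of Slc25a5. The phosphate carrier Slc25a3 was read in 88.1% of cells (pooled 307 CPM), Slc25a39, needed for mitochondrial glutathione, in 83.9% (229.5 CPM), and the 2-oxoglutarate and malate carrier Slc25a11 in 60.1% (154 CPM). Below them lay the dicarboxylate carrier Slc25a10 (36.4% of cells), Slc25a17, which belongs to the family but sits in peroxisomes (44.8%), and the citrate carrier Slc25a1 (34.97%). The ornithine carrier Slc25a15 and the ATP-magnesium and phosphate carrier Slc25a24 were read in 10.5% of cells each. Slc25a5 has 2 other genes with near-identical transcripts in the annotation, so its reads may be split among them.

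Among the mitochondrial transporters outside the name rule, 8 of 10 were in the table and all 8 were read in 15 or more cells. The uncoupling protein Ucp2 was read in 96.5% of cells at 902 CPM and the outer membrane channel Vdac2 in 87.4% at 291 CPM.

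Amino acid carriers made up 17 members and 18.8% of member counts. The taurine transporter Slc6a6 was read in the largest share of cells, 91.6%, with a median of 470 and a maximum of 1903 CPM. Slc3a2, the CD98 heavy chain that brings a family of light chains to the cell surface, was read in 90.2% of cells, with a median of 313 and a maximum of 1212 CPM. Per kilobase Slc3a2 stood at 97.2 and Slc6a6 at 61.9 CPM. Of the light chains, Slc7a8 (LAT2) was read in 72.7% of cells, Slc7a7 (y+LAT1) in 51.7% and Slc7a6 (y+LAT2) in 35.7%. Slc7a5 (LAT1), no member, was read in 12 cells, the cystine and glutamate exchanger Slc7a11 in 1 cell, and Slc7a10 in none. Any of the 5 light chains that had a count was read in 92.3% of cells, and 89.4% of those cells also read Slc3a2. By light chain the share with Slc3a2 was 92.3% for Slc7a8, 68 of 74 cells for Slc7a7, 45 of 51 for Slc7a6 and 12 of 12 for Slc7a5, beside 90.2% over all cells.

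The glutamine carriers were spread over several members: Slc38a1 was read in 58.7% of cells (pooled 121.1 CPM), Slc38a2 in 35.7% (50.3 CPM) and Slc1a5 (ASCT2) in 28.7% (54.4 CPM). Of the lysosomal amino acid carriers, Slc38a7, which exports glutamine and asparagine, was read in 51.7% of cells (93.4 CPM), the arginine sensor Slc38a9 in 30.1% (27.1 CPM) and the proton-coupled Slc36a1 in 10.5% (7.83 CPM). Of 14 genes of lysosomal amino acid sensing, which report to the growth kinase mTOR, 11 were in the table and 10 were read in 15 or more cells. Lamtor2 was read in 93.7% of cells, Rragc in 62.9% and Flcn in 56.6%. Of 14 lysosomal transporters outside the name rule, all 14 were read in 15 or more cells, from Mfsd8 in 11.9% to Mfsd1 in 96.5%. The chloride and proton exchanger Clcn7 was read in 76.2% of cells, the calcium channel Mcoln1 in 65.7% and the cystine exporter Ctns in 41.3%.

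Metal carriers made up 17 members and 11.4% of member counts. The copper importer Slc31a1 was read in 60.8% of cells (pooled 175 CPM, median 135.9, maximum 767 CPM), and the related Slc31a2 in 32.2% (63.7 CPM). Slc39a7 (ZIP7), which releases zinc from the endoplasmic reticulum and Golgi, was read in 55.9% of cells (133.99 CPM). Another gene, Gm20427, overlaps 80.7% of its exon length, so its count depends on how shared reads were handled, a setting not stated in the labels. The Golgi zinc importers Slc30a7, Slc30a5 and Slc30a6 were read in 39.2%, 31.5% and 23.1% of cells, and the heme carrier Slc48a1 in 39.9% (59.5 CPM). Of 12 partner genes of metal handling, 10 had a count and 7 were read in 15 or more cells: Sod1 in 100% of cells, Mt1, a metallothionein that binds zinc and copper, in 99.3% (360 CPM), the copper chaperone Atox1 in 96.5% and Mt2 in 34.97%. Mtf1, the factor that reads the metal response element, was read in 8.39%.

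The zinc importers Slc39a1 and Slc39a2 had opposite shapes. Slc39a1 (ZIP1) was read in every cell but 1 at a low level, from 0 through a median of 33.9 to 391 CPM, and its variability was the lowest of all members. Slc39a2 was read in 56 cells, and in those its median was 269 CPM and its maximum 1386 CPM; 29.9% of its counts came from 5 cells. The pooled level was 55.5 CPM for Slc39a1 and 156 CPM for Slc39a2 (23.5 and 45.3 CPM per kilobase). The annotation holds a near-identical copy of Slc39a1, Slc39a1-ps; its part in the even low level was not tested.

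The nucleotide sugar family SLC35 had 15 members and 11.2% of member counts. Per kilobase Slc35a4 was highest (74.9 CPM per kilobase, read in 63.6% of cells), followed by Slc35b2, which brings the sulfate donor PAPS into the Golgi (63.4, in 72% of cells). Slc35b1, the ATP/ADP exchanger of the endoplasmic reticulum, came next (39.9 CPM per kilobase, in 48.95% of cells), and then Slc35c2 (35.9, in 62.2%). Slc35b4, for UDP-xylose and UDP-N-acetylglucosamine, was read in 42.7% of cells at a pooled level of 103.2 CPM. The CMP-sialic acid carrier Slc35a1 was read in 16.1% of cells and the GDP-fucose carrier Slc35c1 in 15.4%.

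The peptide class consisted of Slc15a4 and Slc15a3, both endolysosomal. Slc15a3 had a count in 39.2% of cells (interval 31.1 to 47.7), and its pooled level was 56.6 CPM, with no cell above 475 CPM. Slc15a4, which anchors the adaptor TASL in signalling from endosomal Toll-like receptors, was read in 25.9% of cells at 58.4 CPM. Of 10 partner genes of endosomal peptide sensing, 8 were read in 15 or more cells. Unc93b1, which carries Toll-like receptors to endosomes, was read in 98.6% of cells (1159 CPM), Tlr7 in 67.8%, Irf5 in 55.9% and the TASL gene, listed as 5430427O19Rik, in 15.4%. The peptidoglycan sensor Nod2 was read in 3 cells. Tmem132a overlaps 28.1% of the exon length of Slc15a3 from the opposite strand, and it was itself read in 7 cells at 1.52 CPM, 5 of them with Slc15a3.

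Nucleoside and nucleobase carriers had a median share of cells of 52.4%, from 3 members. The equilibrative carrier of the plasma membrane Slc29a1 (ENT1) was read in 74.1% of cells with a median of 210 and a maximum of 870 CPM, and its lysosomal relative Slc29a3 (ENT3) in 52.4% (pooled 106.4 CPM). The purine nucleobase carrier Slc43a3 was read in 28.7% of cells (57.4 CPM).

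Of 6 sugar carriers, Slc37a2, a sugar phosphate exchanger of the endoplasmic reticulum, was read in 78.3% of cells, with a median of 199 and a maximum of 1547 CPM. The other 5, Slc2a8, Slc50a1, Slc2a6, Slc37a4 and Slc45a4, were read in 11.2% to 36.4% of cells. Of 6 vitamin and cofactor carriers, the ascorbate importer Slc23a2 was read in 67.1% of cells, with a median of 116.1 and a maximum of 2100 CPM. The proton-coupled folate carrier Slc46a1 was read in 33.6% of cells (82.2 CPM), the reduced folate carrier Slc19a1 in 13.3%, the acetyl-CoA carrier Slc33a1 in 20.3% and the riboflavin carrier Slc52a2 in 16.8%.

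Ion carriers had 16 members but 5.00% of member counts, and only the sodium, potassium and chloride cotransporter Slc12a2 (NKCC1) was read in at least 50% of the cells (55.2%, 80.03 CPM). The sodium and calcium exchanger Slc8a1 was read in 38.5% and the endosomal sodium and proton exchanger Slc9a9 in 28.7%. The 4 lipid carriers were the choline transporter-like Slc44a2 (44.8%, 120 CPM) and Slc44a1 (18.9%) and the fatty acid carriers Slc27a1 (26.6%, 62.04 CPM) and Slc27a4 (13.3%). Of the 9 carriers of other organic compounds, the lysosomal sialic acid exporter Slc17a5 was read in 67.8% of cells (152 CPM), the monocarboxylate family members Slc16a6, Slc16a10 and Slc16a7 in 42.0%, 36.4% and 16.1%, and Slc10a3 in 20.3%. Of 5 genes listed here as possible carrier partners, 4 were read. Bsg, the subunit of monocarboxylate carriers, was read in 100% of cells (915 CPM) and Ostm1, the partner of Clcn7, in 69.2%. For Itm2b, read in 100%, and Cd44, read in 39.2%, no role as a carrier subunit is implied.

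The name rule also took 3 genes that encode no carrier: the scaffold Slc9a3r1 (NHERF1) in 32.9% of cells, Slc4a1ap in 18.2% and Slc7a6os in 20.3%. Together they took 0.767% of member counts.

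Most carriers that mark other brain cells were at 0. Of 20 such genes, among them the transmitter carriers Slc1a2, Slc17a7, Slc17a6 and Slc32a1, 15 had no count in any cell. A count of 0 allows up to 2.098% of the 143 cells by the limit of 3 counts. Only the glutamate carrier Slc1a3 (GLAST), best known from astrocytes, reached 15 cells: it was read in 13.3% (interval 8.19 to 19.97) at 13.3 CPM, with 66.6% of its counts in 5 cells.

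**Figure D2:**
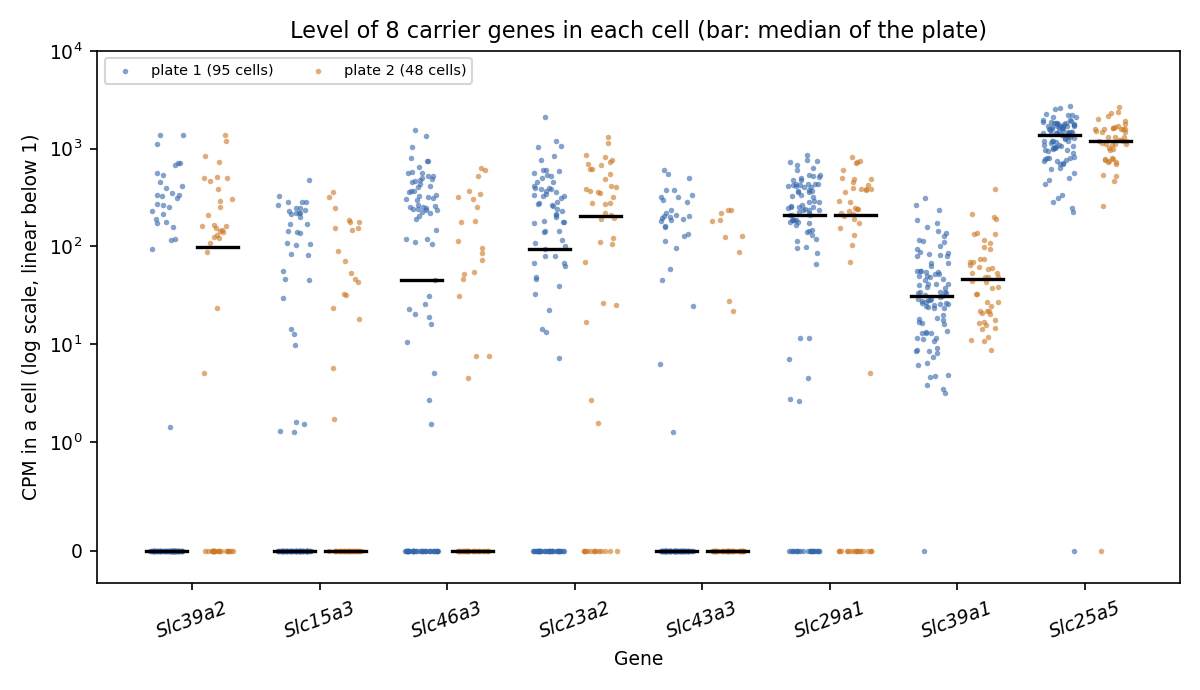
CPM in each of the 143 cells (vertical axis, log scale, linear below 1) for 8 carrier genes, with plate 1 in blue, plate 2 in orange and a bar at the median of each plate. Slc39a2, Slc15a3, Slc46a3 and Slc43a3 have many cells at 0 beside cells above 100 CPM, whereas Slc39a1 lies between 3.16 and 391 CPM in all cells but 1 and Slc25a5 between 223 and 2728 CPM in all but 2.

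Of the 3 genes that gave the set its markers, Slc46a3 was read in the most cells, 55.2% (interval 46.7 to 63.6), with a median of 254 and a maximum of 1545 CPM in the cells that read it and 169 CPM pooled. Slc39a2 and Slc15a3 were read in 39.2% each. Slc39a2 lies at chr14:51892889-51896745, Slc15a3 at chr19:10839727-10859362 and Slc46a3 at chr5:147878437-147894815 (GRCm38). Slc39a2 was read in 30.5% of cells on plate 1 (21.5 to 40.8) and 56.2% on plate 2 (41.2 to 70.5). Its pooled level was 136.6 and 197 CPM. Slc46a3 went the other way, with 61.1% (50.5 to 70.9) and 43.8% (29.5 to 58.8) of cells, and 209 and 84.8 CPM. Slc15a3 stood at 37.9% and 41.7%. After thinning to 200000 gene counts the shares over all cells were 38.5%, 34.3% and 54.5% for Slc39a2, Slc15a3 and Slc46a3.

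All 3 were read in 11 cells, 2 of them in 47, 1 in 64 and none in 21. Slc46a3 was read in 46.4% of the 56 cells with Slc39a2 and in 60.9% of the cells without it. The Spearman rho of the pair was -0.31 (-0.28 on plate 1, -0.31 on plate 2), the lowest of the 6903 pairs of members. The highest was 0.32, between Slc23a2 and Slc39a2 (0.33 and 0.29 on the plates), and only 2 pairs exceeded 0.3, with a median over pairs of 0.0087. These correlations are a description over 143 cells of shared libraries and sparse counts.

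Variability between cells was described as the squared coefficient of variation of CPM relative to the running median of genes of like mean CPM, on a log2 scale, so that 0 stands for a typical gene. The median over members was 0.27, beside 0 over all 7789 genes, and 89 members (75.4%) lay above 0, where 49.6% of all genes did. This turned with the measure: with the variance of log2(CPM + 1) in place of the squared coefficient the median was -0.0021. At 1 log2 unit or more stood 3 members, Slc39a2 (1.56), Slc23a2 (1.22) and Slc46a3 (1.08), which is 2.54% of members where 1.86% of all genes reached it. Slc39a2 exceeded 99.6% of all genes. Its value was 1.73 on plate 1 and 1.29 on plate 2, that of Slc23a2 1.29 and 0.93, and that of Slc46a3 1.09 and 0.83. The next were the fatty acid carrier Slc27a1 (0.98), the mitochondrial Slc25a45 (0.91), Slc35a4 (0.86), Slc19a1 (0.85), Slc37a2 (0.83), the zinc carrier Slc39a11 (0.82) and the biotin and pantothenate carrier Slc5a6 (0.82). The most even were Slc39a1 (-1.45), Slc25a4 (-0.66), Slc25a5 (-0.64), Slc38a6 (-0.57) and Slc7a6os (-0.53); Slc38a6 has 11 near-identical transcripts of other genes in the annotation. Over the classes of more than 1 member the median ran from -0.38 for the 3 genes that encode no carrier through 0.06 for mitochondrial carriers to 0.72 for vitamin and cofactor carriers.

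**Figure D3:**
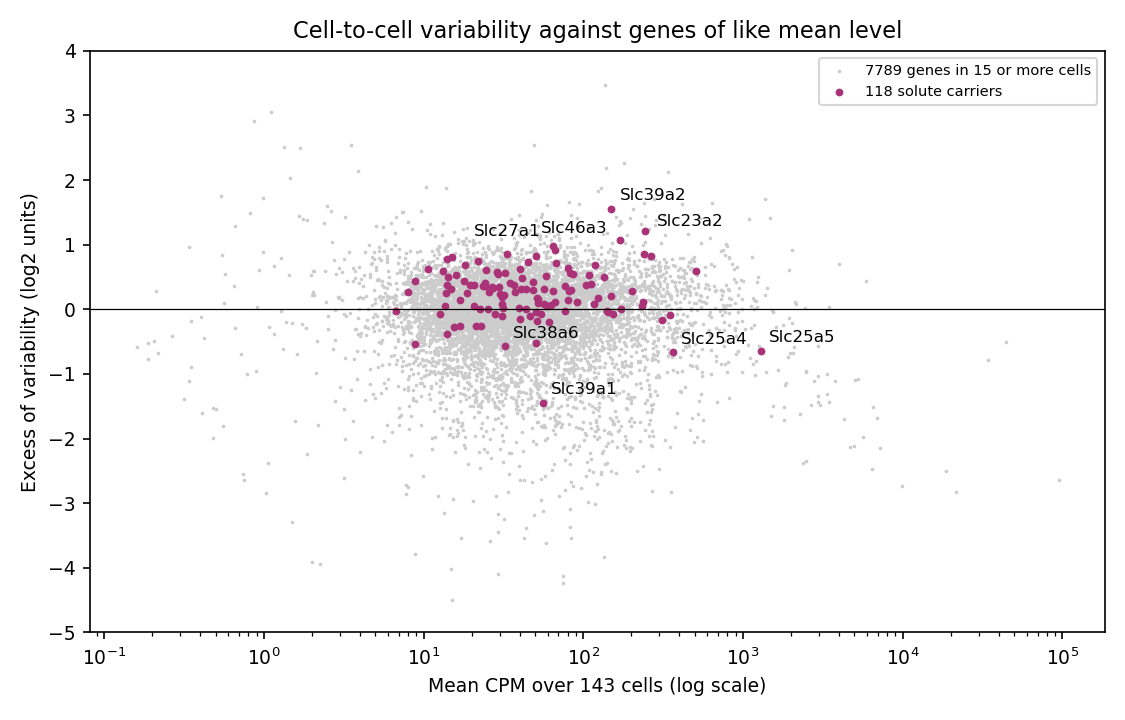
Excess of variability (vertical axis, log2 units, 0 for a gene typical of its mean) against mean CPM over 143 cells (horizontal axis, log scale), with 7789 genes read in 15 or more cells in grey and the members in purple. Slc39a2, Slc23a2 and Slc46a3 lie above 1, and Slc39a1 lies lowest at -1.45.

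By the number of S phase and G2/M genes read at 10 CPM or more, 73 cells (51.05%, interval 42.6 to 59.5) were classed as cycling, 54 on plate 1 and 19 on plate 2, and 70 as other cells. Such a class is a range of a score rather than a cell type: looser limits gave 99 cells and stricter ones 60. Cycling cells had a median of 3549 genes read and other cells 2875. Members took 0.978% of gene counts in cycling cells and 0.962% in the others, and the median member differed by 0.06 log2 units where the median of all genes differed by 0.10. Of members with 10 CPM or more in either class, 9 were at least 2-fold higher in cycling cells (7.76%), where 13.8% of 8240 genes were. At least 2-fold lower were 12 members (10.3%), where 6.8% of genes were. Nothing is read from these shares about the set.

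On both plates, 3 members were at least 2-fold higher in cycling cells, where 7.82% of genes were, and 4 were lower, where 2.43% were. Slc43a3, which carries purine nucleobases, was read in 34 of 73 cycling cells (46.6%, interval 34.8 to 58.6). It was read in 7 of 70 others (10.0%, 4.12 to 19.5). Its pooled level was 93.03 CPM (90.5 to 95.6, exact Poisson) against 17.5 CPM (16.4 to 18.7), a log2 ratio of pooled CPM + 1 of 2.34, with 102.9 against 22.5 CPM on plate 1 and 62.7 against 10.08 CPM on plate 2. After thinning, 45.2% and 10.0% of cells read it. Over all cells the level of Slc43a3 had a Spearman rho of 0.42 with the number of genes read, which was higher in cycling cells. The part of that number in the difference was not tested. The fatty acid carrier Slc27a4 stood at 21.6 against 4.51 CPM (log2 ratio 2.04) and Slc7a6os, no carrier, at 13.6 against 3.92 CPM (1.57), both over few cells. Lower in cycling cells on both plates were Slc9a9 (25.6 against 72.9 CPM, log2 ratio -1.47), Slc33a1 (16.99 against 47.3 CPM, -1.43), Slc27a1 (34.4 against 92.96 CPM, -1.41) and Slc38a9 (15.3 against 40.3 CPM, -1.34). For Slc38a9 the share of cells did not follow, at 30.1% and 30.0%. The nucleoside carrier Slc29a1 did not reach 2-fold, with 309 against 161 CPM, but was read in 86.3% of cycling cells (76.2 to 93.2) and 61.4% of others (49.03 to 72.8).

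Scaling by spike-in totals, which counts RNA per cell rather than its shares, moved the median of all genes from 0.10 to 0.54 log2 units between cycling and other cells. On that scale Slc43a3 stood at 2.78, Slc9a9 at -1.04, Slc33a1 at -0.99, Slc27a1 at -0.97 and Slc38a9 at -0.91, values that contain that shift. Of the 4 lower members, Slc9a9 remained past 2-fold. Gene counts per spike-in count had a median of 27.6 in cycling cells and 21.0 in the others. Among called members the share that were higher went from 42.9% to 91.3%; over all genes 26.2% were then at least 2-fold higher and 2.33% lower.

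**Figure D4:**
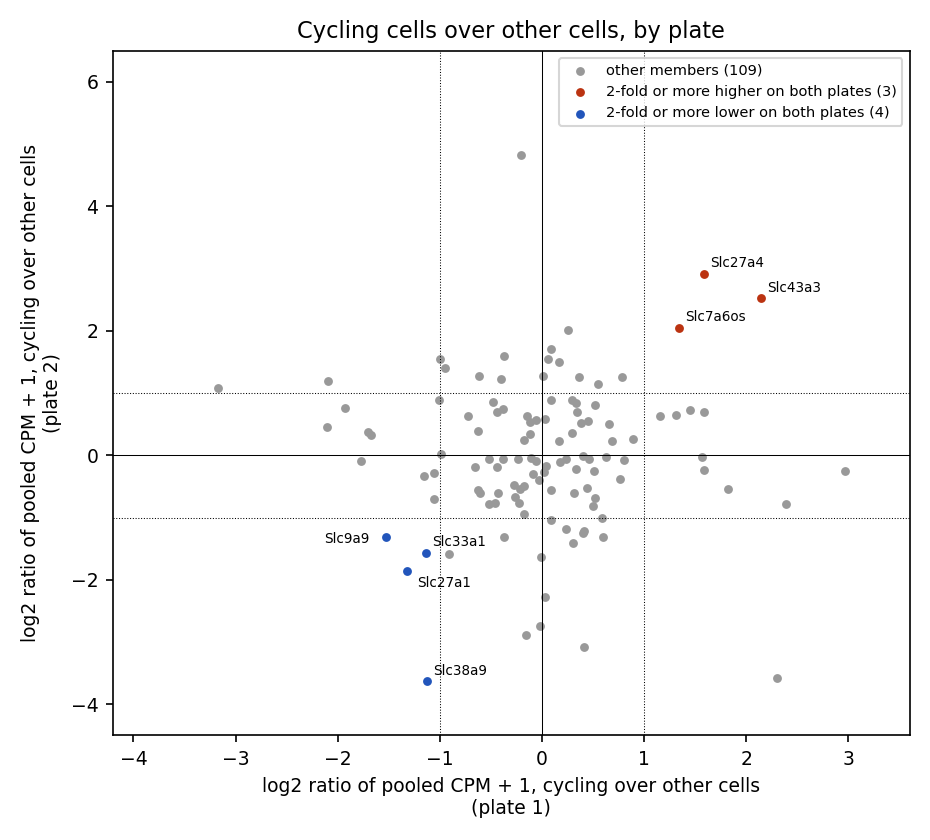
Log2 ratio of pooled CPM + 1 between cycling and other cells on plate 1 (horizontal axis) and plate 2 (vertical axis) for members with 10 CPM or more in either class, 1 point each, with dotted lines at 2-fold. Slc43a3, Slc27a4 and Slc7a6os lie beyond 2-fold upwards on both plates, and Slc9a9, Slc33a1, Slc27a1 and Slc38a9 downwards.

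Cells were clustered on 1000 variable genes with every row named Slc left out. Cluster 1 (26 cells) was highest in G2/M genes. Of the other 2 clusters, cluster 2 (37 cells) had the higher mean of homeostatic microglia genes and cluster 3 (80 cells) the lower one, and none was given a cell type name. The mean of PAM and DAM genes was 8.78 in cluster 2 and 9.43 in cluster 3, and that of homeostatic genes 7.16 and 6.61, as mean log2(CPM + 1). The 2 clusters were numbered by the homeostatic mean, so their order on it was fixed. Cluster 1 stood close to cluster 2, at 8.81 and 7.12. Of the 50 genes most raised in cluster 2, and of the 50 in cluster 3, 0 were on the homeostatic list and 0 on the PAM and DAM list. The ratios below therefore do not place a gene along these states. Cluster 3 also held more cycling cells (43 of 80 against 4 of 37) and more genes per cell (median 3282 against 2671). The part of these in the ratios below was not tested. Slc43a3, higher in cycling cells, was read in 18 of 80 cells of cluster 3 (35.04 CPM) and 3 of 37 of cluster 2 (21.98 CPM). Both levels lie below its level over all cycling cells, which include all 26 cells of cluster 1.

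Between clusters 3 and 2, 15 members (13% of those with 10 CPM or more in either) were at least 2-fold higher in cluster 3, where 17.6% of 8149 genes were, and 13 (11.3%) were lower, where 10.3% were. On both plates 9 members were higher (7.83%, background 9.53%) and 9 lower (7.83%, background 4.03%). Nothing is read from these shares about the set, and the values below describe single genes. Slc39a2 was read in 41 of 80 cells of cluster 3 (51.2%, interval 39.8 to 62.6). In cluster 2 it was read in 8 of 37 (21.6%, 9.83 to 38.2). Its level was 239 against 39.6 CPM, a log2 ratio of 2.57, with 210 against 27.8 CPM on plate 1 and 307 against 56.99 CPM on plate 2. Slc15a3 was read in 51.2% of cells (39.8 to 62.6) against 13.5% (4.54 to 28.8). Its level was 76.2 against 17.3 CPM (log2 ratio 2.08), with 79.5 against 7.72 CPM on plate 1 and 68.5 against 31.4 CPM on plate 2. Slc46a3 lay on the other side, read in 52.5% of cells (41.02 to 63.8) against 70.3% (53.02 to 84.1), at 129.4 against 326 CPM (log2 ratio -1.33). On plate 1 it was at 169 against 432 CPM and on plate 2 at 38.4 against 169 CPM.

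Higher in cluster 3 on both plates were also 2 carriers without a count in cluster 2. The riboflavin carrier Slc52a2 was read in 17 of 80 cells at 34.1 CPM and the cationic amino acid carrier Slc7a1 in 12 of 80 cells at 10.99 CPM. For both, 0 of 37 cells allows a share of up to 8.11% of cluster 2, and no fold is given. The phosphate importer Slc20a1 stood at 34.9 against 2.91 CPM, the sulfate carrier Slc26a2 at 23.8 against 1.85 CPM and Slc4a1ap, no carrier, at 19.3 against 2.44 CPM. Few cells of any cluster read Slc20a1, Slc26a2 and Slc4a1ap: 17, 14 and 15 of 95 on plate 1, and 12, 5 and 11 of 48 on plate 2. Slc39a7 stood at 181 against 59.2 CPM and was read in 67.5% (56.1 to 77.5) against 32.4% (18.01 to 49.8) of cells, and Slc35b1 at 106.9 against 36.3 CPM. Both act in the endoplasmic reticulum.

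Lower in cluster 3 on both plates were, besides Slc46a3, the mitochondrial sodium and calcium exchanger listed as Slc24a6, the zinc carriers Slc39a8, Slc39a11 and Slc30a9, the endosomal exchanger Slc9a9, the choline carrier Slc44a1, Slc45a4 and the light chain Slc7a7. Slc24a6 stood at 5.24 against 32.9 CPM (log2 ratio -2.44), Slc39a11 at 32.04 against 94.8 CPM (-1.54), Slc9a9 at 34.02 against 92.4 CPM (-1.41) and Slc7a7 at 91.01 against 189 CPM (-1.04). The ratio of Slc24a6 rests on few cells, 4 of 80 in cluster 3 and 8 of 37 in cluster 2. Slc39a8, Slc45a4 and Slc44a1 were read in 13.5% to 16.2% of cluster 2, that is in 5 or 6 cells each. For Slc44a1 the share of cells went against the level, with 18.8% in cluster 3 and 16.2% in cluster 2.

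The clusters themselves depended on the random seed. With another seed 49 of the 80 cells stayed in cluster 3, which held no other cells, and cluster 2 grew to 67 cells, with all of the 37 in it. Because the 18 members past 2-fold on both plates were chosen on the first clusters, a kept direction is no independent check. All 18 members kept their direction, and 11 remained past 2-fold: Slc39a2 at 2.89, Slc15a3 at 1.33, Slc46a3 at -1.65, Slc20a1 at 1.81, Slc26a2 at 1.35, Slc7a1 at 2.72, Slc24a6 at -2.14, Slc39a11 at -1.06, Slc45a4 at -1.30, Slc7a7 at -1.15 and Slc9a9 at -1.56. Slc52a2 (0.82), Slc39a7 (0.78), Slc4a1ap (0.78), Slc35b1 (0.14), Slc30a9 (-0.31), Slc39a8 (-0.55) and Slc44a1 (-0.40) did not. Scaling by spike-in totals moved the median of all genes from 0.13 to 0.58 log2 units and left 13 of the 18 past 2-fold in the same direction. On that scale Slc39a2 stood at 3.02, Slc15a3 at 2.52 and Slc46a3 at -0.87. Among called members the share that were higher moved from 53.6% to 86.8%, while over all genes 32.01% were then at least 2-fold higher and 4.81% lower.

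**Figure D5:**
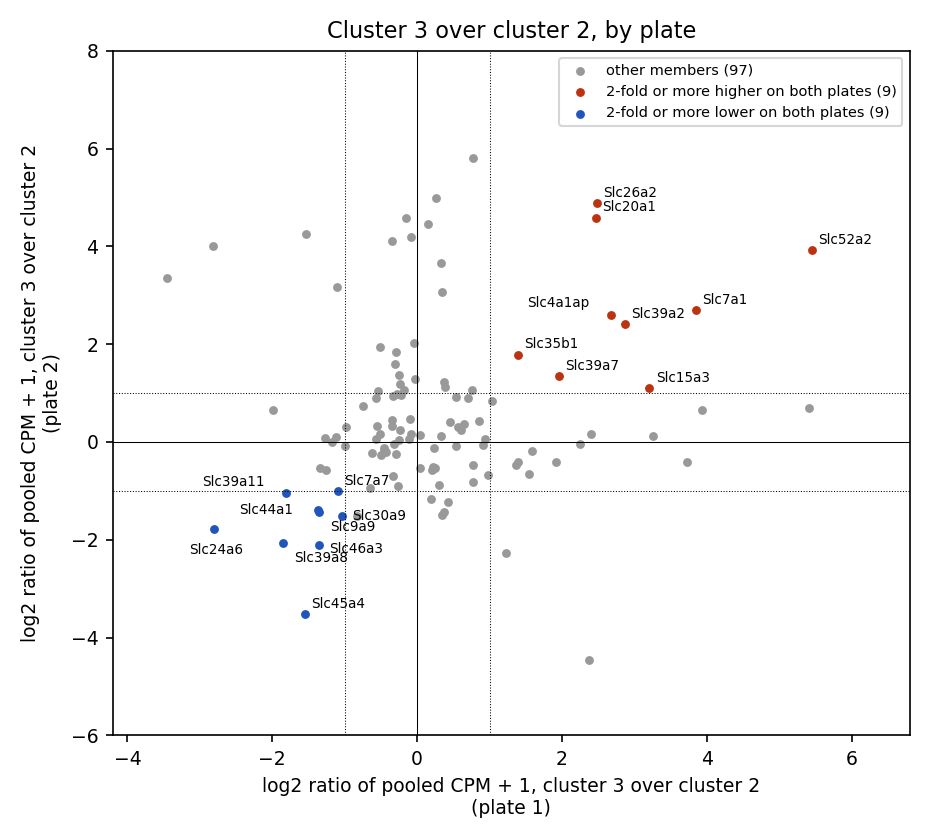
Log2 ratio of pooled CPM + 1 between cluster 3 and cluster 2 on plate 1 (horizontal axis) and plate 2 (vertical axis) for members with 10 CPM or more in either cluster, 1 point each, with dotted lines at 2-fold. The 9 members above on both plates include Slc39a2 and Slc15a3, and the 9 below include Slc46a3 and Slc7a7.

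Over the 143 cells the level of Slc39a2 had a Spearman rho of 0.37 with the mean of PAM and DAM genes and of -0.29 with that of homeostatic genes. For Slc15a3 the values were 0.22 and -0.14, and for Slc46a3 -0.19 and 0.07. Among 7788 other genes the most like Slc39a2 were Tmem150a (0.45), the cathepsin inhibitor Cstb (0.44), the endoplasmic reticulum chaperone Hspa5 (0.43), the cargo receptor Lman1 (0.43) and the proteasome subunit Psmb6 (0.42), and the least like was Serinc3 (-0.57, with -0.55 on plate 1 and -0.58 on plate 2). For Slc15a3 the most like were Set (0.34), Eif1a (0.33), Tmed2 (0.33), Hspa5 (0.31) and Ppa1 (0.31), with 0.42, 0.29, 0.27, 0.32 and 0.25 on plate 1 and 0.17, 0.42, 0.45, 0.31 and 0.42 on plate 2. For Slc46a3 they were Ypel3 (0.34), Ucp2 (0.34), Rnase4 (0.33), the lysosomal protease Ctsd (0.31) and the receptor Csf1r (0.31), with 0.13, 0.20, 0.29, 0.13 and 0.25 on plate 2. These are the extremes of many weak values over the same cells.

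Between the plates, 13 members (11.3%) were at least 2-fold higher on plate 1, where 8.61% of 8172 genes were, and 3 (2.61%) on plate 2, where 5.19% were. Slc46a3 (209 against 84.8 CPM) and Slc43a3 (69.6 against 31.4 CPM) were among the first. Higher on plate 2 were Slc25a36 (14.7 against 3.07 CPM), Slc5a6 (26.6 against 9.58 CPM) and Slc16a10 (69.1 against 31.4 CPM). Cycling cells made up 54 of 95 cells on plate 1 and 19 of 48 on plate 2; its part in these differences was not tested.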

How the data were processed

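The authors deposited whole read counts of each gene in a table of 143 single cells (23337 gene rows and 92 spike-in rows). Per the submitters' processing notes, HTSeq, Picard, STAR 2.5.3a and Trim Galore 0.4.3 were used with genome build mm10; annotation and strand setting are not given in the sources used here. Column sums equalled the totals in the labels in 143 cells and no pair of cells was identical. Age was taken as postnatal day 7 from the age label, although the name of a pooled library contains the word adult.

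From the deposited counts, CPM were computed here per cell on gene counts, without spike-ins and with the ribosomal RNA row Rn45s, which took 9.28% of gene counts; no cell was removed and no doublet caller was run. All cells are 1 sample, so no p-value is given. Shares of cells have exact 95% binomial intervals and pooled CPM exact Poisson intervals, for counting error only; no other per-sample columns were left unused. Ratios between classes of cells are on pooled CPM + 1, for genes at 10 pooled CPM or above in either class, called past 2-fold. Cells with 6 of 27 S genes or 8 of 32 G2/M genes at CPM 10 or more were classed as cycling. Variability was set against 100 genes on either side in order of mean CPM. Clusters were made with scanpy 1.11.5 and leidenalg 0.10.2 on 15 components and 15 neighbours at a resolution of 0.6. Exon lengths, overlaps and near-identical transcripts (blastn 2.17.0, 95% identity over 500 bases) came from GENCODE M21, and 118 of 118 members were matched; 38 overlap an exon of another gene, 11 of them over 10% of their length, and 15 have a near-identical transcript elsewhere, so their counts carry that uncertainty. In simulated data the 2-fold call found 95.5% of genes changed 4-fold between the classes, and it also called 4.84% of unchanged genes. The variability step found 78.5% of genes raised 4-fold in some cells and also 8.56% of unchanged genes, by rank rather than by the limit of 1 log2 unit. The simulated counts of that step were less sparse, with 9641 genes read in 15 or more cells where 7789 were in the data. These rates may therefore not hold for members read in few cells.

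Members, classes, gene lists and the rule for named genes were chosen with earlier results of these data known. Named are the 3 marker genes, the leading 4 members of each class, the highest and the most and least variable members, those past 2-fold on both plates, those at the limit of 15 cells, and leading genes of each partner list; others were chosen after their values were seen, and some genes are not reported here. Alternatives tried were other limits and totals, each plate alone, thinning, spike-in scaling, pseudocounts, filters, class limits and clusterings.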

Additional observations from a re-analysis of the deposited data

How the results depend on the processing

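All values rest on 1 pool of animals, so none could be checked between animals, and 0 of 143 cells allows up to 2.098% of cells by the limit of 3 counts (exact 2.55%), which says nothing of transcripts missed within a cell. The number of members ran from 82 to 143 over 7 alternatives, each within 1.5 times the number reported. The share of gene counts taken by members, 0.970%, was 1.07% without Rn45s, 0.968% as a mean over cells, and 0.982% and 0.946% on the plates. The median excess of variability, 0.27, was 0.25 on plate 1, 0.27 on plate 2, 0.28 with 50 genes on either side and 0.28 at a mean CPM of 10 or more. It reversed to -0.0021 with the variance of log2(CPM + 1); the cause was not tested.

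Of members higher in cycling cells there were 9, and 21 with spike-in totals, 19 on plate 2 alone and 4 with a pseudocount of 10, where 26.2%, 21.7% and 7.14% of all genes were higher. Of those lower there were 12, and 2 with spike-in totals and 5 with a pseudocount of 10 (2.33% and 1.74% of all genes). Of members higher in cluster 3 than in cluster 2 there were 15, and 33 with spike-in totals, 23 on plate 1 alone and 31 on plate 2 alone, where 32.01%, 22.4% and 26.2% of all genes were higher. Of those lower there were 13, and 5 with spike-in totals, 20 on plate 1 alone, 7 with a pseudocount of 10 and 8 with another seed (4.81%, 14.6%, 4.95% and 10.6% of all genes). Spike-in totals shift all genes upwards in the class with more RNA per cell. A pseudocount of 10 shrinks ratios of low genes, and a single plate holds fewer cells. The part of each in these counts was not tested, nor was any other cause. The other 16 counts under alternatives lay within 1.5 times the main value. A resolution of 0.4 gave 2 clusters and no such comparison. No paired analysis was possible because all cells belong to 1 group.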

Other observations

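The classes differed in how many of their rows in the table were read at all. Over all 23337 gene rows, 12801 had a count and 7789 were read in 15 or more cells. Of 23 rows of the nucleotide sugar family, 18 had a count and 15 were read in 15 or more cells, and of 30 metal carrier rows 25 had a count and 17 reached 15 cells. Of 44 mitochondrial carrier rows, 36 had a count and 19 were members. At the other end, 29 of 59 ion carrier rows, 25 of 55 amino acid carrier rows and 31 of 75 rows for other organic compounds had a count, with 16, 17 and 9 members.

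Some carriers with well known roles fell below the limit of 15 cells and are named here after their values were seen. The mitochondrial iron carriers Slc25a28 and Slc25a37 were read in 9.09% and 8.39% of cells, the zinc exporter of the plasma membrane Slc30a1 in 6.29%, the creatine carrier Slc6a8 in 9.79% and the glucose carrier Slc2a3 in 7.69%.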
